A study of Mus musculus with 3 samples.

Results

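The miR-143/145 pair of smooth muscle and stroma and the muscle miRNAs miR-1a, miR-133a and miR-206 were followed in newborn mouse ovaries exposed to DEHP, a phthalate plasticizer. Which cells of these ovaries carried them was not measured. The members were chosen by name, with earlier results of these data known: mmu-miR-143-3p, mmu-miR-143-5p, mmu-miR-145a-5p, mmu-miR-145a-3p, mmu-miR-1a-3p, mmu-miR-133a-3p and mmu-miR-206-3p. All 7 were found among the 627 mature miRNA IDs of the deposited counts. Ovaries of CD1 mice were collected after birth, cultured in vitro for 3 days with DEHP at 0, 10, or 100 μM, and sequenced for small RNA, at the stage labelled postnatal day 3, as 1 library per concentration. The 0 μM ovaries received the solvent DMSO, and all 3 groups shared the same serum-containing medium. By the study's methods, ovaries of many mice went into the sequencing of each group, so its single library averages animals but has no replicate. No test across replicates was therefore possible, no p-value is given, and the 95% intervals below cover counting error only.

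miR-143 and miR-145 are cut from neighbouring hairpins that are usually transcribed together, and in most organs they are made by smooth muscle cells, pericytes and fibroblast-like stromal cells. miR-1 and miR-133a form a second pair, made in heart and skeletal muscle under the control of muscle transcription factors. miR-206 is typical of skeletal muscle and shares its seed, the bases that pair with targets, with miR-1. Each hairpin has a 5p arm and a 3p arm, and the arm that is loaded into the silencing complex is usually much more abundant than its partner.

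Mature sequences of RefSeq on GRCm38.p6 were used for 1 of the 7 members, miR-206-3p, so only miR-206 is shown. Its seed is the one it shares with miR-1a-3p, the more abundant muscle miRNA of these libraries, whose sequence is not shown. Mir206 lies on the plus strand of chromosome 1, from 20679010 to 20679082, and miR-206-3p covers 20679055 to 20679076. Capitals mark the seed (bases 2 to 8) in the mature miRNA, and the 5p and 3p mature arms in the hairpin.
mmu-miR-206-3p: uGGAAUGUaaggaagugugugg
Mir206 hairpin: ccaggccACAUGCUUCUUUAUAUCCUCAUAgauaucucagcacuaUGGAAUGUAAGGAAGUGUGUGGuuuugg

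In the GENCODE M21 annotation of GRCm38, the build that the submitters' processing notes name as mm10, the hairpins fall into 4 pairs of neighbours. Mir145a (61647825 to 61647894) and Mir143 (61649196 to 61649258) lie on the minus strand of chromosome 18, separated by 1301 bases. The long non-coding RNA gene Carmn, on the same strand, ends 366 bases upstream of Mir143. Mir133a-1 (10782909 to 10782976) and Mir1a-2 (10785481 to 10785552) lie 2504 bases apart on the minus strand of chromosome 18, within the span of Mib1, which is on the plus strand. Mir1a-1 (180389048 to 180389124) and Mir133a-2 (180398379 to 180398482) lie 9254 bases apart on the plus strand of chromosome 2. Mir206 lies 3686 bases before Mir133b, inside the long non-coding RNA gene Gm28653. miR-1a-3p and miR-133a-3p each had 2 rows in the deposited table with identical counts, so the counts cannot be assigned to the chromosome 2 or the chromosome 18 copy.

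The libraries held 5064602 to 5952274 counts over the 627 IDs. The size factors (median of ratios) were 1.38, 1.35 and 0.546 at 0, 10, and 100 μM, and the 10 most abundant miRNAs held 45.4%, 45.6% and 70.5% of the counts. The 100 μM library therefore stood apart in how its counts were spread, and its normalized counts, which are counts divided by the size factor, depend more on the scaling. No listed miRNA had fewer than 10 counts at 0 μM, so rarer ones are missing from all comparisons, whatever their level at 100 μM. Only miRNAs whose normalized count averaged 10 or more over the libraries were compared. Over these 587, the middle 50% of log2 ratios ran from -0.37 to 0.29 between 10 and 0 μM, and from -1.06 to 1.12 between 100 and 0 μM. A log2 ratio beyond 2 is used below as the mark of a large difference.

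Without DEHP the members spanned the range of abundance from the 4th to the 606th rank of the 627 miRNAs. miR-143-3p, the arm of miR-143 that acts on targets, had 288159 counts at 0 μM and was the 4th most abundant of the 627 miRNAs. It made up 5.49% of that library (Wilson 95% interval 5.47% to 5.50%) and 96.7% of the summed counts of the 7 members. miR-145a-5p, the abundant arm of the neighbouring hairpin, had 7377 counts and rank 81. Its partner arm miR-145a-3p had 1464 counts and rank 178, and miR-143-5p had 596 counts and rank 241. miR-1a-3p followed with 354 counts and rank 282. miR-206-3p had 26 counts (exact Poisson 95% interval 17.0 to 38.1) and miR-133a-3p 11 (5.49 to 19.7), and these were the only neighbours in this order whose intervals overlapped. The arms of miR-143 and miR-145a thus stood above the muscle miRNAs at 0 μM. Since each count is a read of a whole mature miRNA of similar length, no length correction was made. Ranks and ratios between different miRNAs compare read counts, and whether each miRNA was captured equally well was not tested.

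**Figure D1:**
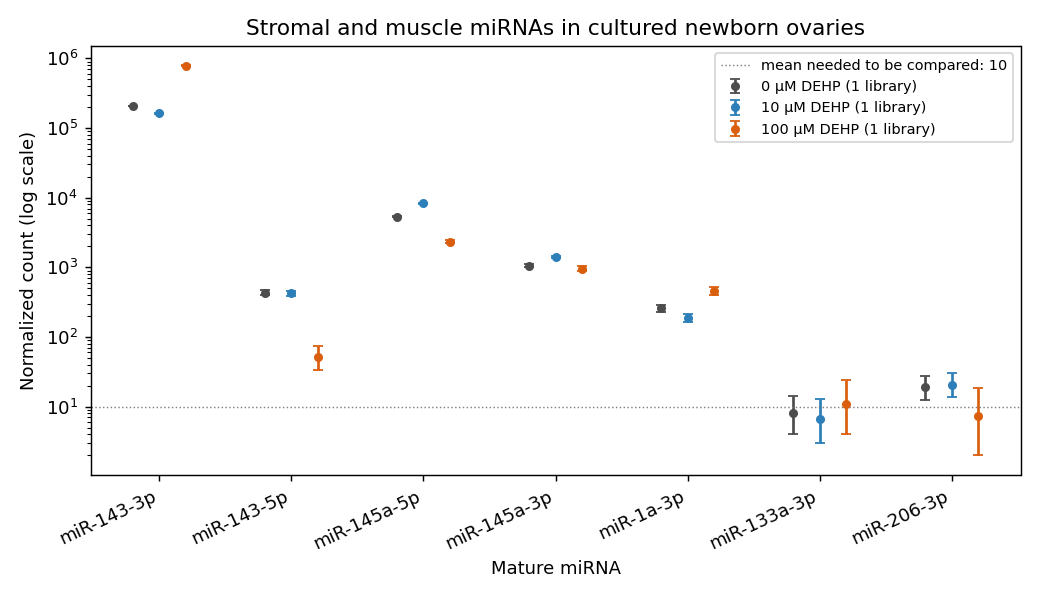
Normalized counts of the 7 miRNAs (log axis) in the libraries of 0, 10, and 100 μM DEHP, 1 point per library, with exact Poisson 95% intervals that cover counting error only. With the size factors, the 100 μM library lies above the other libraries for miR-143-3p and miR-1a-3p (the latter turns with total-count scaling), and below them for miR-143-5p and miR-145a-5p, while all intervals of miR-133a-3p overlap.

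At 10 μM DEHP the log2 ratios of the members to 0 μM ran from -0.46 to 0.64. None of the 6 members that passed the minimum was beyond 2, where 0.681% of the 587 miRNAs did. Their median log2 ratio was 0.06, against 0.02 over all 587, with 3 above and 3 below 0. The arms of miR-145a were the highest of them. miR-145a-5p had 7377 counts at 0 μM and 11215 at 10 μM, or 5353 and 8320 normalized counts, and its log2 ratio of 0.64 (95% counting interval 0.59 to 0.68) was above that of 94.0% of the 587. miR-145a-3p had 1464 and 1893 counts and a log2 ratio of 0.40 (0.30 to 0.50). Both arms of this hairpin were therefore higher at 10 μM by more than counting error. miR-143-3p, in contrast, had 218413 counts at 10 μM and a log2 ratio of -0.37 (-0.38 to -0.36), and miR-1a-3p, with 252 counts, had -0.46 (-0.70 to -0.22). The intervals of miR-143-5p (596 and 574 counts, log2 ratio -0.02) and miR-206-3p (26 and 28 counts, 0.14) included 0. How far these small values exceed the variation between cultures cannot be told from 1 library per concentration.

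At 100 μM DEHP the arms of miR-143 differed from their 0 μM levels in opposite directions. miR-143-3p had 432017 counts, or 791480 normalized counts against 209094 at 0 μM. Its log2 ratio was 1.92 (1.91 to 1.93), a 3.79-fold higher level, and it ranked 3rd in the library. miR-143-5p, from the same hairpin, had 28 counts against 596, or 51.3 normalized counts against 432. Its log2 ratio was -3.06 (-3.68 to -2.53), an 8.43-fold lower level, and 21 of the 587 miRNAs had a lower one. The counting intervals of both arms exclude 0, in opposite directions. miR-143-5p was the only member with a log2 ratio beyond 2 between 100 and 0 μM. This is 1 of 6 members, against 19.8% of all 587 miRNAs in either direction and 9.37% in the lower direction, so the share of members beyond 2 was near the background. With total-count scaling 3 members were below -2, and over all miRNAs 4 were above 2 and 213 below -2, against 61 and 55 with the size factors. The median log2 ratio of the 6 was -0.68, against -0.01 over all 587, with 2 above and 4 below 0. Without miR-143-3p, the members summed to 7131, 10365 and 3814 normalized counts at 0, 10, and 100 μM. Most of each sum was miR-145a-5p, with 5353, 8320 and 2329 normalized counts, so the sum mainly follows that arm. miR-143-3p, at 1.92, lay just inside the threshold. With total-count scaling its log2 ratio was 0.40, since its share of the counts was 5.49% at 0 μM and 7.26% at 100 μM, and that of miR-143-5p was -4.57.

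The miR-145a arms were both below their 0 μM level at 100 μM, unequally. miR-145a-5p, which acts in smooth muscle differentiation, had 1271 counts against 7377 at 0 μM, or 2329 against 5353 normalized counts. Its log2 ratio was -1.20 (-1.29 to -1.11), and it ranked 132nd, against 81st at 0 μM. miR-145a-3p had 521 counts against 1464, or 955 against 1062 normalized counts, with a log2 ratio of -0.15 (-0.30 to -0.01). With total-count scaling the log2 ratios were -2.72 for miR-145a-5p, past the threshold, and -1.67 for miR-145a-3p. miR-145a-5p was thus highest in the 10 μM library and lowest in the 100 μM library, and the intervals of its 3 normalized counts did not overlap. For miR-145a-3p the Poisson intervals at 0 and 100 μM overlapped, although the interval of their log2 ratio just excluded 0, and that at 10 μM lay above both.

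Of the muscle miRNAs, miR-1a-3p, which promotes muscle differentiation, had 354, 252 and 252 counts at 0, 10, and 100 μM. These were 257, 187 and 462 normalized counts, and the log2 ratio between 100 and 0 μM was 0.84 (0.61 to 1.08) with the size factors but -0.67 with total-count scaling. Its direction at 100 μM therefore depended on the scaling. miR-206-3p had 26, 28 and 4 counts, or 18.9, 20.8 and 7.33 normalized counts. Its log2 ratio of -1.31 between 100 and 0 μM had an interval of -3.34 to 0.16 with the size factors, which included 0. With total-count scaling the value was -2.72. As a share of all counts miR-206-3p was 0.000495% at 0 μM (Wilson interval 0.000338% to 0.000725%) and 6.72e-05% at 100 μM (2.61e-05% to 0.000173%). These share intervals did not overlap, so whether a difference was detectable depended on the scaling. miR-133a-3p, with 11, 9 and 6 counts and a mean of 8.55 normalized counts, was under the minimum and enters no count of members. Its log2 ratio between 100 and 0 μM was 0.44 (-1.26 to 2.02) with the size factors and -0.99 with total-count scaling. The lowest count of any miRNA at 0 μM was 10, and miR-133a-3p was close to that limit, so a muscle miRNA that was rarer at 0 μM would not be seen.

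**Figure D2:**
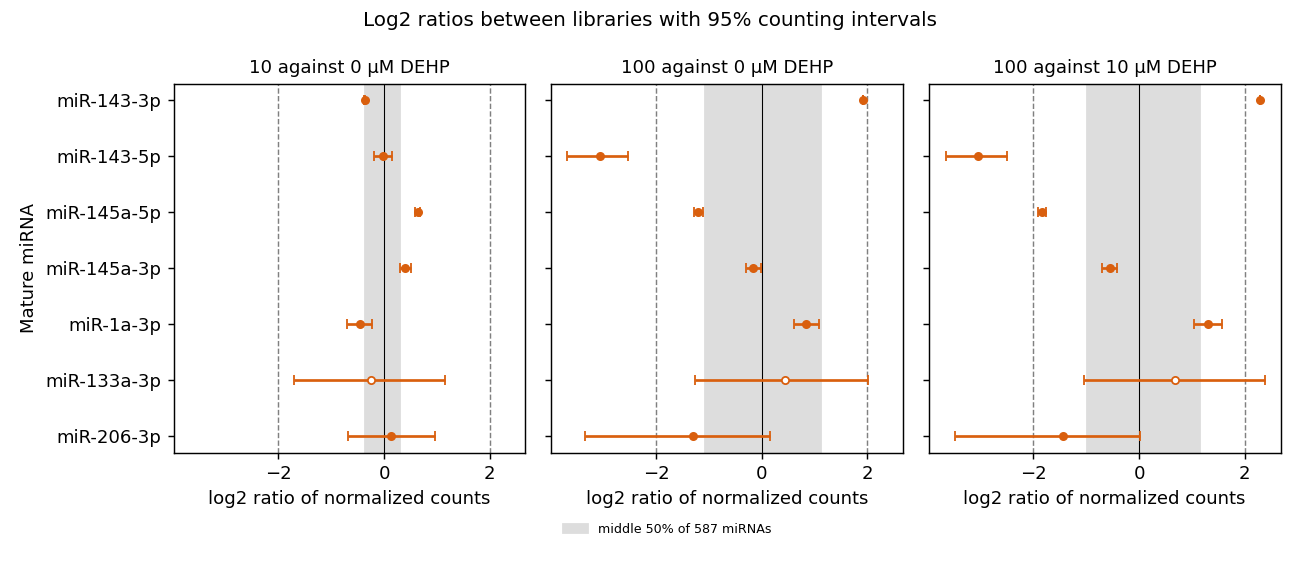
Log2 ratios of normalized counts between libraries, 1 panel per comparison, with 95% counting intervals, the middle 50% of the 587 miRNAs in grey and dashed lines at a log2 ratio of -2 and 2. The open symbol is miR-133a-3p, whose mean was under the minimum. Between 100 and 0 μM miR-143-3p stands at 1.92 and miR-143-5p at -3.06.

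Between 100 and 10 μM DEHP, which shares the 100 μM library with the comparison above, 2 of the 6 members were beyond 2. They were the arms of miR-143, with miR-143-3p at 2.29 (2.28 to 2.30) and miR-143-5p at -3.04 (-3.66 to -2.51). miR-143-3p was no longer beyond 2 with total-count scaling (0.75) or with the 10 most abundant miRNAs left out of the library sizes (1.48). Over all 587 miRNAs 21.0% were beyond 2, and 8.69% were below -2. miR-145a-5p had a log2 ratio of -1.84 (-1.92 to -1.75), farther from 0 than in the comparison with 0 μM because its 10 μM level was above that at 0 μM. miR-145a-3p stood at -0.56, miR-1a-3p at 1.30 and miR-206-3p at -1.44, where the interval of -3.48 to 0.01 included 0. With total-count scaling miR-1a-3p was at -0.23 in this comparison, miR-145a-5p at -3.37, miR-145a-3p at -2.09 and miR-206-3p at -2.88, so these last 3 were past the threshold.

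Ratios between members of 1 library need no scaling. The ratio of miR-143-3p to miR-143-5p was 483 at 0 μM (exact 95% interval 446 to 525). At 10 μM DEHP it was 381 (351 to 414), and at 100 μM it was 15429 (10675 to 23220). Between 100 and 0 μM it was 31.9-fold higher, a difference of 4.996 on the log2 scale (4.45 to 5.60). The ratio of miR-145a-5p to miR-145a-3p was 5.04, 5.92 and 2.44, and its difference between 100 and 0 μM was -1.05 on the log2 scale (-1.22 to -0.88). The ratio of the main arms of the neighbouring hairpins differed too. miR-143-3p had 39.1 counts for each count of miR-145a-5p at 0 μM, 19.5 at 10 μM and 340 at 100 μM. This ratio was 2.01-fold lower at 10 μM and 8.70-fold higher at 100 μM than at 0 μM, and none of the 3 exact intervals overlapped. The ratio of the minor arms, miR-143-5p to miR-145a-3p, was 0.407, 0.303 and 0.0537, so it was lower at 10 μM, like that of the main arms, and lower again at 100 μM, where that of the main arms was higher. This last ratio was added after the other values were seen. Relative to each other, the 4 arms of the 2 hairpins therefore differed between 100 and 0 μM.

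Among the muscle miRNAs, the ratio of miR-1a-3p to miR-133a-3p was 32.2, 28.0 and 42.0 at 0, 10, and 100 μM. Its difference between 100 and 0 μM was 0.38 on the log2 scale with an interval of -1.20 to 2.12, so a difference between the libraries was not detectable at this depth. The ratio of miR-1a-3p to miR-206-3p was 13.6 (9.14 to 21.1), 9 (6.08 to 13.8) and 63.0 (24.3 to 233). At 100 μM it was 4.63-fold higher than at 0 μM, a log2 difference of 2.21 (0.65 to 4.20), which rests on 4 counts of miR-206-3p.

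**Figure D3:**
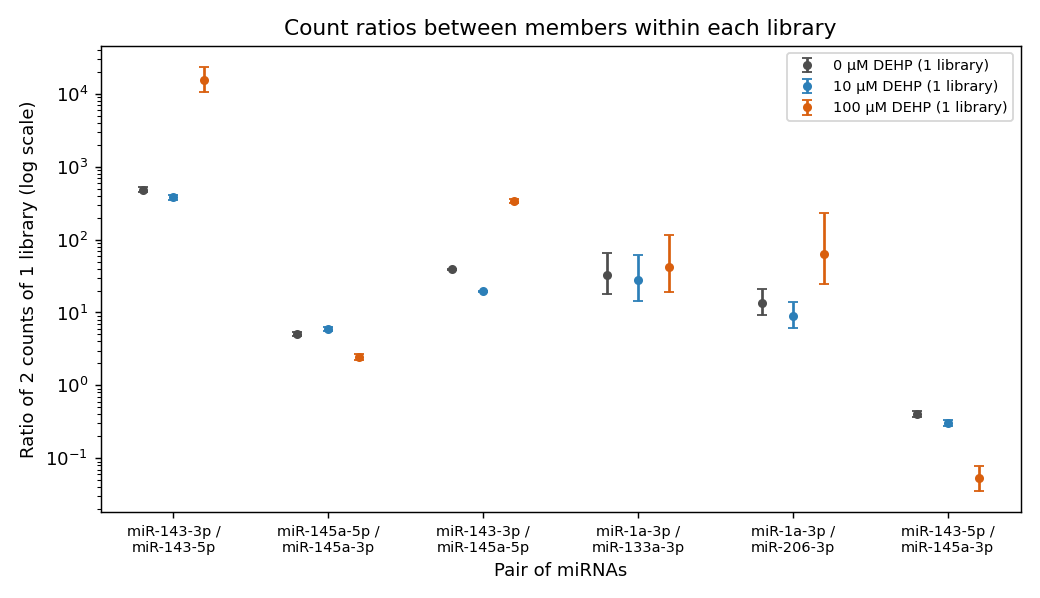
Ratios of the counts of 2 members within each library (log axis), with exact 95% intervals from the split of the counts. The ratio of miR-143-3p to miR-143-5p stands at 483, 381 and 15429 at 0, 10, and 100 μM, whereas the intervals of miR-1a-3p to miR-133a-3p overlap in all 3 libraries.

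The arm ratio of miR-143 was then set beside those of the other hairpins. In 174 hairpins both arms were listed and passed the minimum, and the log2 ratio of 3p to 5p counts was taken with 0.5 counts added. Between 100 and 0 μM this ratio differed by more than 2 in 34.5% of the 174, in either direction, and the median size of the difference was 1.48. For miR-143 it was 4.97 by this measure, and 3 hairpins had a larger one. These were miR-30e (7.04), miR-708 (6.61) and miR-140 (5.30), named after their values were seen. miR-145a, at 1.05, was under the median, with 110 of the 174 above it. In 99 of the 174 the arm that was more abundant at 0 μM had a higher ratio to its partner at 100 μM. Between 10 and 0 μM the median size was 0.42, and miR-143 (-0.35) and miR-145a (-0.23) were both under it. Arm ratios of many hairpins thus differed widely between the 100 and 0 μM libraries, with miR-143 near the upper end.

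**Figure D4:**
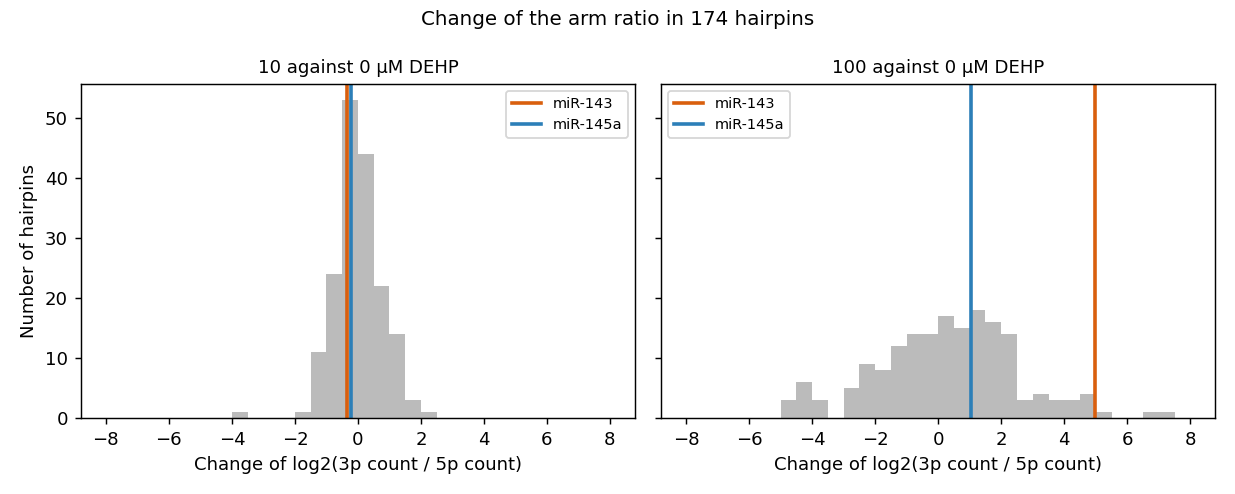
Difference in log2(3p count / 5p count) between libraries for 174 hairpins, as histograms of hairpins in bins of 0.5, for 10 against 0 μM (left) and 100 against 0 μM (right). Lines mark miR-143 and miR-145a. The spread is wider on the right, where miR-143 lies at 4.97 and miR-145a at 1.05.

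The miRNAs with the most similar pair of log2 ratios (10 to 0 and 100 to 0 μM), among those with a mean of at least 100 normalized counts, differed for each member. Likeness is a Euclidean distance over 3 libraries that share the 0 μM values, and it is given as a description. Nearest to miR-143-3p was miR-148a-5p (distance 0.10), and nearest to miR-143-5p was miR-19b-3p (0.09), with 7016, 7210 and 333 counts. miR-145a-5p was nearest to miR-543-3p (0.16) and let-7b-5p (0.22). For miR-145a-3p miR-465a-3p and miR-465b-3p were nearest, both at 0.05, and since their counts were identical they may be the same reads. miR-1a-3p was nearest to miR-296-3p (0.06) and miR-291a-3p (0.09), and miR-206-3p to miR-369-3p (0.12) and miR-434-3p (0.13). The second neighbours of the miR-143 arms were miR-217-5p (0.15) and miR-376b-3p (0.13).

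Other miRNAs of muscle and stroma were set beside the members, in lists chosen with earlier results of these data known. No miRNA with fewer than 10 counts at 0 μM was listed, so an unlisted one may still have been present at 10 or 100 μM. Of 15 further muscle miRNAs, the table listed 1, miR-499-5p, which is made from a myosin gene. It had 118, 79 and 16 counts, or 85.6, 58.6 and 29.3 normalized counts, and a log2 ratio between 100 and 0 μM of -1.53 (-2.40 to -0.79). With the size factors miR-499-5p was thus below its 0 μM level at 100 μM by more than counting error, whereas miR-1a-3p was above it. With total-count scaling both were below it, miR-499-5p at -3.02 and miR-1a-3p at -0.67, so this contrast depended on the scaling. Of 15 further miRNAs taken as mesenchymal, 14 were listed, from miR-199a, miR-199b, miR-214, miR-21a, miR-22, miR-152, miR-100, miR-99a and miR-125b. Which cells of these ovaries made them was not measured. Between 100 and 0 μM, 0 of the 14 were beyond 2, against 19.8% of the 587 miRNAs. The median log2 ratio of the 14 was -0.12, from -1.34 for miR-99a-5p to 1.88 for miR-100-5p. Their summed level was 840416, 878695 and 998019 normalized counts, in which miR-199a-3p and miR-199b-3p hold identical counts and may be the same reads. The largest single part was miR-21a-5p, with 265717, 281990 and 288201 normalized counts. As a share of all counts the sum of the 14 was 22.0%, 23.4% and 9.15%, so its direction at 100 μM turned with the scaling. With total-count scaling the median log2 ratio was -1.61, with 0 of the 14 above 2 and 6 below -2. Over all miRNAs 4 were above 2 and 213 below -2 with that scaling.

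Marks of the other cell types of the ovary were read in the same libraries, and none of the listed groups was absent. Both arms of miR-126a, the mark of endothelium, were below -2 between 100 and 0 μM, at -2.12 (3p) and -3.12 (5p). Of the 587 miRNAs 9.37% were below -2. With total-count scaling the arms were at -3.64 and -4.64, where 213 of all miRNAs were below -2. The summed endothelial level was 46170, 52252 and 9855 normalized counts, or 1.21%, 1.39% and 0.0904% of all counts. Of the germ-cell and early embryonic miRNAs, 16 of 20 were listed. Of these 16, 4 were above 2 and 0 below -2, against 61 and 55 of the 587 miRNAs. The 16 had a median log2 ratio of 0.48 and ran from -1.44 for miR-293-5p to 3.18 for miR-881-3p. Their summed level was 50455, 40807 and 355725 normalized counts, or 1.32%, 1.09% and 3.26% of all counts. Most of this sum was miR-881-3p, with 34411, 25352 and 312245 normalized counts, so the sum mainly follows that miRNA. With total-count scaling the median of these germ-cell miRNAs was -1.04. Then 0 were above 2 and 4 below -2, against 4 and 213 of all miRNAs. The gonadal miR-202-5p and miR-202-3p had log2 ratios of -0.74 and 0.78 (-2.26 and -0.74 with total-count scaling), and summed levels of 31188, 40382 and 19964 normalized counts. All 5 epithelial miRNAs were listed, with summed levels of 6759, 7090 and 6172. Of the blood-cell miRNAs 7 of 9 were listed, with 1940, 1998 and 1642. Most of this last sum was miR-486a-5p and miR-486b-5p, which hold identical counts. As shares of all counts these sums were 0.177%, 0.189% and 0.0566% for the epithelial and 0.0509%, 0.0532% and 0.0151% for the blood-cell miRNAs, lower at 100 μM than at 0 μM. Of these lists, 1 epithelial miRNA, miR-141-3p, with 1 count at 100 μM, and 0 blood-cell miRNAs were below -2, against 2 and 2 with total-count scaling. The epithelial log2 ratios ran from -5.62 for miR-141-3p to 1.13 for miR-200c-3p, so their sum hides opposite directions. Those of the blood-cell miRNAs that passed the minimum ran from -1.98 for miR-142a-3p to -0.003 for miR-223-3p. The part of cell composition in the members' values was not tested, and in bulk ovaries fewer cells of a type and less of a miRNA per cell cannot be told apart.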

How the data were processed

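Before deposit, the authors trimmed adapters and poor-quality bases, aligned to the mouse genome with bowtie2 and counted with miRDeep2. The deposited values are raw counts, 1 row per mature miRNA and precursor. The submitters' processing notes name mm10 and DESeq2, and tool versions and the miRBase release are not given in the sources used here. Sample titles assigned the 3 columns to concentrations. Of 961 rows, the row with the highest total was kept for each of 627 IDs (79 IDs had several rows).

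Counts were divided by median-of-ratios size factors (DESeq2 1.42.0, R 4.3.3), and 0.5 was added before log2 ratios were taken for a mean of at least 10. TMM and upper-quartile factors came from edgeR 4.0.16, and other steps from Python 3.11.15 with scipy 1.17.1. Intervals at 95% were exact Clopper-Pearson for the ratio of 2 counts, exact conditional for a difference between 2 ratios, Poisson for counts and Wilson for shares. Molecular identifiers are not mentioned in the sources used here, and these intervals cover counting error only. On simulated counts of 587 miRNAs for 100 against 0 μM, the intervals held the true value for 95.7%, 99 of 102 differences of 3 (log2) were called, and 0 of 387 unchanged miRNAs were. For 100 against 10 μM 1 of 387 unchanged miRNAs was called. These counts were drawn with counting error alone and with the same size factors. They check the computation only, and say nothing of variation between cultures or of the choice of scaling. The members and lists were chosen with earlier results of these data known. Named miRNAs are the members, the 2 nearest patterns of each and the extremes of the lists, with exceptions stated. Alternatives were 4 other scalings, 1 added count, other minimums, summed rows and a threshold of 1. Total-count scaling of the other lists was added after seeing the data.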

Additional observations from a re-analysis of the deposited data

How the results depend on the processing

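No paired analysis was possible because each concentration had a single library, which also means that leaving out a replicate was not possible. Between 100 and 0 μM total counts shifted the median log2 ratio of all miRNAs by -1.51, leaving the 10 most abundant miRNAs out of the library sizes by -0.76, the upper quartile by 0.01 and TMM by 0.08. Under total counts, 3 members were beyond 2 between 100 and 0 μM and 4 between 100 and 10 μM, all lower, against 1 and 2 with the size factors, and miR-1a-3p changed sign to -0.67 and -0.23. Without the 10 most abundant miRNAs the numbers were 2 and 3, all lower. With TMM the log2 ratio of miR-143-3p between 100 and 0 μM was 1.999, still under the threshold. At a threshold of 1, 4 members were beyond it between 100 and 0 μM and 5 between 100 and 10 μM. Over all miRNAs, total counts gave 4 above 2 and 213 below -2 between 100 and 0 μM (61 and 55 with the size factors) and 8 and 226 between 100 and 10 μM (72 and 51). Without the 10 most abundant these were 23 and 130, and 24 and 119. A minimum mean of 100 left 25, 24 and 1 below -2 in the comparisons of 100 with 0, 100 with 10 and 10 with 0 μM, and no minimum gave 9 in the last, against 4. At a threshold of 1 the numbers above and below were 157 and 151, 173 and 145, and 9 and 30. Of 126 member log2 ratios under an alternative, 97 stayed within the counting interval. All 21 did so with 1 count added and all 21 with summed rows, which barely alter the scaling. Only 10 did so with total-count scaling and 10 without the 10 most abundant miRNAs. Of the 126, the sign was opposite in 9, namely 2 of miR-1a-3p, whose interval excluded 0, and 4 of miR-133a-3p and 3 of miR-143-5p, whose intervals held 0. Depth limits miR-133a-3p and miR-206-3p, with 6 and 4 counts at 100 μM, where 3 counts correspond to 5.50 normalized counts.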
